A study of Mus musculus with 6 samples.

Results

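The nuclear-encoded subunits of the mitochondrial respiratory chain were taken from the gene table by symbol, and 85 of its 40879 genes matched. Assigned by symbol prefix alone, they comprise 37 genes of complex I (Nduf symbols), 4 of complex II (Sdha to Sdhd), 9 of complex III (Uqcr symbols and Cyc1), 18 of complex IV (Cox4 to Cox8) and 17 of complex V (Atp5 symbols). Ndufa4 is thus counted under complex I by its name, and the place of each protein was not checked. CD8 T cells were sorted by flow cytometry from MC38-hPD-L1 tumours (MC38 is a mouse colon carcinoma line) of C57BL/6N mice at day 12, after proximity labelling in which light and a photocatalyst attach biotin to neighbouring cells. The 3 Biotin+ libraries hold cells that carried biotin, labelled as neighbouring the tumour, and the 3 Biotin- libraries hold cells without it, labelled as distal. All cells thus came from the same kind of tumour, host strain and day. The labels do not give the number of animals, any pooling of them or a control without labelling, so p-values measure the spread between these libraries.

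Complexes I to IV pass electrons along the inner mitochondrial membrane to oxygen and, except for complex II, pump protons. Complex V, the ATP synthase, uses the proton gradient to make ATP. Most subunits are encoded in the nucleus and imported, while a small core of complexes I, III, IV and V is encoded by mitochondrial DNA, so both genomes must supply parts. In CD8 T cells this chain is known to sustain long-lived memory cells, and loss of mitochondrial fitness is a known feature of exhausted tumour-infiltrating cells.

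Libraries held 16440614 to 19640693 counts in Biotin+ and 16423106 to 19035864 in Biotin-. The 15 CD8 T cell identity genes took 0.818% to 0.916% of the counts in Biotin+ and 0.499% to 0.641% in Biotin-, so the labelled cell type was present in every library. All 15 had positive log2 fold changes, 5 of them past the threshold, where 1.53% of all tested genes were higher. Fibroblast and endothelial markers (12 genes) took 0.0126% to 0.0338% in Biotin+ and 0.106% to 0.152% in Biotin-. Macrophage markers (9 genes) took 0.0342% to 0.091% in Biotin+ and 0.0753% to 0.276% in Biotin-. Epithelial and B cell markers were near 0 in all 6 libraries. Biotin+ replicate 2 stood apart: cytosolic ribosomal protein transcripts took 18.8% of its counts, against 13.8% in each of the other Biotin+ libraries and 13.4% to 14.6% in Biotin-. Many set medians are given below with and without it. Those under other scalings, or with transcript length in the fit, include it. In bulk RNA, more cells of a type and more RNA per cell cannot be told apart.

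Promoter sequence was not used in the choice by symbol, and each of 4 short motifs searched was found in a minority of the subunit genes. RefSeq promoter windows on GRCm38.p6, from 250 bases before to 50 bases after the start, were found for 69 of the 85 genes, and both strands were searched. The letters of NRF1, a regulator of mitochondrial genes (GCGCA, any base, then GCGC), were found in 24.6% of these genes, against 5.19% of all 27025 genes with a window. The letters CCGGAAG, a core bound by ETS factors such as GABP, were found in 24.6%, against 9.93%. The letters AAGATGGC of YY1 were found in 14.5%, against 3.19%, and the letters GGGGCGGGG of SP1 in 15.9%, against 12.9%. The NRF1 letters were in 6 of 15 complex V genes, 7 of 33 complex I genes, 1 of 13 complex IV genes, 2 of 3 complex II genes and 1 of 5 complex III genes. The YY1 letters were in 7 of 33 complex I genes and 3 of 15 complex V genes, and in 0 genes of the other complexes. A match describes the letters only.

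The start regions of 4 subunit genes are printed below, with NRF1 or ETS letters in capitals, 5′ to 3′ on the gene's strand, from 150 bases before to 30 bases after the start (RefSeq, GRCm38.p6). Ndufb7 is shown because it was the only subunit past the threshold. Cox8a is shown as a gene that passed with the replicate number in the fit. Atp5g2 carries the NRF1 letters as a palindrome, and Sdha carries them 3 times while its difference was among the smallest.
Ndufb7, chr8:83566608-83566787, plus strand: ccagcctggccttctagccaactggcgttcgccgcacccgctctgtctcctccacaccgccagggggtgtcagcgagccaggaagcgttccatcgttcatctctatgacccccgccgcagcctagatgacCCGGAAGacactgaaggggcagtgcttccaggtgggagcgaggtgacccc
Cox8a, chr19:7217587-7217766, minus strand: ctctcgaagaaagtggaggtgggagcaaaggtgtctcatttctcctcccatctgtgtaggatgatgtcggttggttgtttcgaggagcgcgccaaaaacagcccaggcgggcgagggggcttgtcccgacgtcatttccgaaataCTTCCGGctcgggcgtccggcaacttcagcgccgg
Atp5g2, chr15:102671018-102671197, minus strand: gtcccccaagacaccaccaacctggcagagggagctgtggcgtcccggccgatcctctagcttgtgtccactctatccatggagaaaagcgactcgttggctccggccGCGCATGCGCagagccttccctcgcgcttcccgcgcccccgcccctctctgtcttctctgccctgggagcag
Sdha, chr13:74350211-74350390, minus strand: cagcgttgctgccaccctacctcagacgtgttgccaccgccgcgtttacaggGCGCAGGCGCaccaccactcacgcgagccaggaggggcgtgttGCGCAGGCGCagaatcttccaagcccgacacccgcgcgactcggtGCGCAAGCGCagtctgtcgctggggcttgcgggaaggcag

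The comparison asks how respiratory chain transcripts differ between CD8 T cells labelled as near the tumour and those labelled as farther away. With libraries scaled on the bulk of genes, most subunit transcripts were at somewhat higher levels in Biotin+, and 1 passed the test. Of the 80 subunits with enough counts, 78 had a positive log2 fold change under this scaling, where 55.3% of 13360 tested genes had one. Under a scaling to CD8 T cell identity genes (below), 0 of these subunits and 861 of the 13360 genes had one. The 5 subunits without enough counts were tissue isoforms of complex IV. The tested subunits had a median of 0.46, and all tested genes one of 0.06. With edgeR's quasi-likelihood test and Benjamini-Hochberg adjustment over all genes, 1 subunit was higher at an adjusted p below 0.05, 0 were lower and 79 did not pass. Among all tested genes 8.26% were called, with 1.53% higher and 6.72% lower. The share of subunits called higher (1.25%) thus lay near that of all genes in this direction, and the 0 called lower lay below theirs. At an unadjusted p under 0.05, 24 subunits were higher and 0 lower, where 8.62% of all genes were higher and 13.9% lower. The libraries' ranges did not overlap for 27 of the 80 (33.8%), all with Biotin+ above, and for 13.4% of all genes in that direction.

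**Figure D1:**
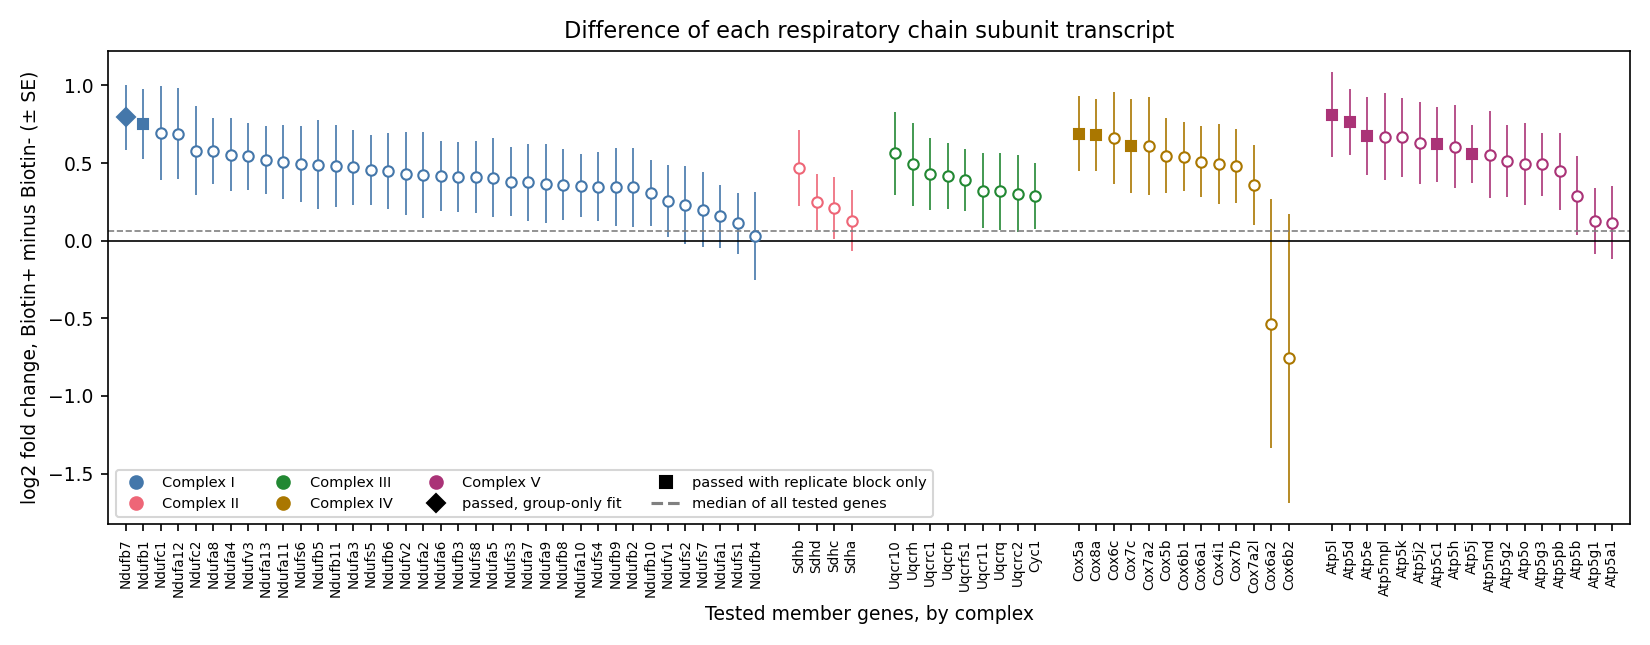
Log2 fold change (Biotin+ minus Biotin-, with its SE) of each of the 80 tested subunit genes, grouped by complex. Filled diamonds passed an adjusted p of 0.05 in the group-only fit and filled squares with the replicate block alone. Of the 80 values, 78 lie above 0. Under scaling to the CD8 T cell identity genes 0 do, where 861 of all 13360 tested genes do.

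Same-numbered libraries deviated together across genes, so the replicate number was also fitted as a block, a pairing that the labels do not state. With the block, 10 subunits were higher and 0 lower (12.5% of the 80 higher), where 5.6% of all genes were higher and 12% lower (17.6% in all). The 10 were Ndufb7, Ndufb1, Cox8a, Cox5a, Cox7c, Atp5d, Atp5l, Atp5j, Atp5e and Atp5c1. All 10 have a promoter window, and 5 of these hold the ETS letters, 1 the NRF1, 1 the YY1 and 1 the SP1 letters. Among the 69 subunits with a window the shares were 24.6%, 24.6%, 14.5% and 15.9% in that order. Atp5c1, Atp5d and Atp5j were searched over 2 windows each. A link between the letters and the difference was not tested. DESeq2 called 3 subunits higher, Ndufb7, Ndufb1 and Atp5d, and 0 lower, where it called 2.96% of all genes higher and 10.2% lower (13.2% in all).

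The size of the difference rested largely on 1 library. Biotin+ replicate 2 held the highest value of the 6 libraries for 77 of the 80 subunits. Relative to each gene's own mean, the median subunit stood at -0.08, 0.67 and 0.02 on the log2 scale in Biotin+ replicates 1, 2 and 3, and at -0.29, -0.12 and -0.20 in the same order in Biotin-. Without Biotin+ replicate 2 the median log2 fold change was 0.15, 68 of 80 values were positive, and 0 subunits passed. Of all genes in that fit, 6943 of 13346 values were positive. Between same-numbered libraries, the Biotin+ value was above the Biotin- value for 68, 77 and 64 of the 80 subunits in pairs 1, 2 and 3, with median log2 ratios of 0.22, 0.89 and 0.21. In these pairs the Biotin+ value was above for 54.2%, 49.1% and 54% of all tested genes, with medians of 0.05, -0.01 and 0.06. The direction was thus shared by the 3 pairs, and its size was not.

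**Figure D2:**
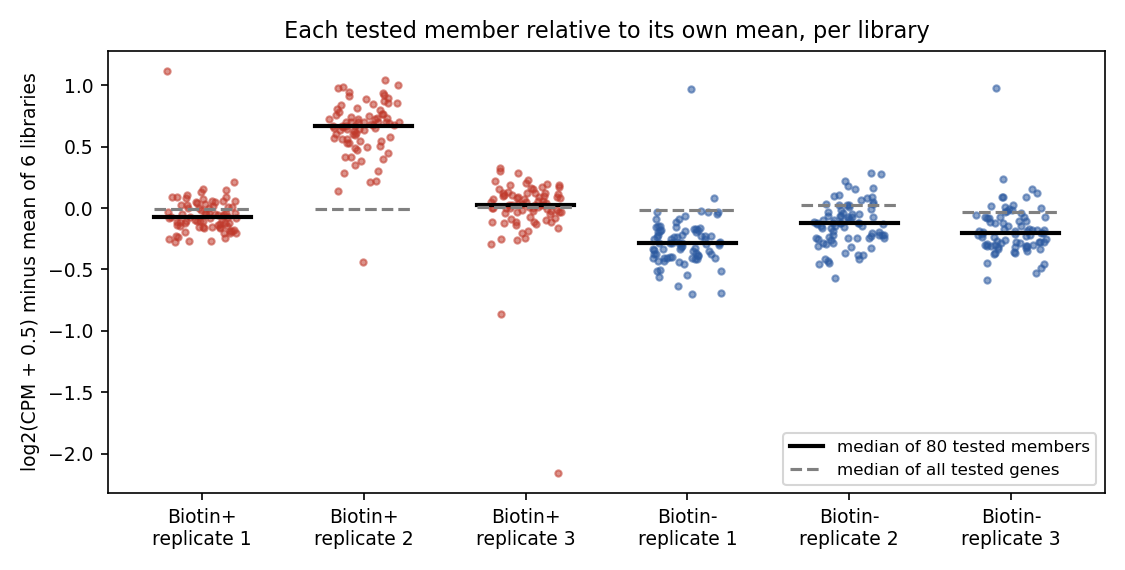
Each point is a tested subunit gene, plotted as log2(CPM + 0.5) minus its mean over the 6 libraries; black bars are medians over subunits and dashed bars medians over all tested genes. Biotin+ replicate 2 stands at a median of 0.67, and the other libraries lie between -0.29 and 0.02.

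The direction also depended on how libraries were scaled. The usual TMM scaling holds the bulk of genes level. When libraries were instead scaled to the 15 CD8 T cell identity genes, the median of all tested genes moved to -0.71 and that of the subunits to -0.36. Then 0 of 80 subunits and 861 of all 13360 tested genes had a positive value. Of the subunits, 4 were lower (Atp5a1, Atp5b, Ndufs1 and Sdha) and 0 higher, where 29.4% of all genes were called, 29.2% lower and 0.157% higher. With the block added to this scaling 17 subunits were lower and 0 higher, where 60.6% of all genes were called, 59.9% lower and 0.689% higher. Both medians changed sign between the scalings. A change of scaling moves all genes by nearly the same amount. That the subunit median stood above that of all genes under both is thus no separate result.

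**Figure D3:**
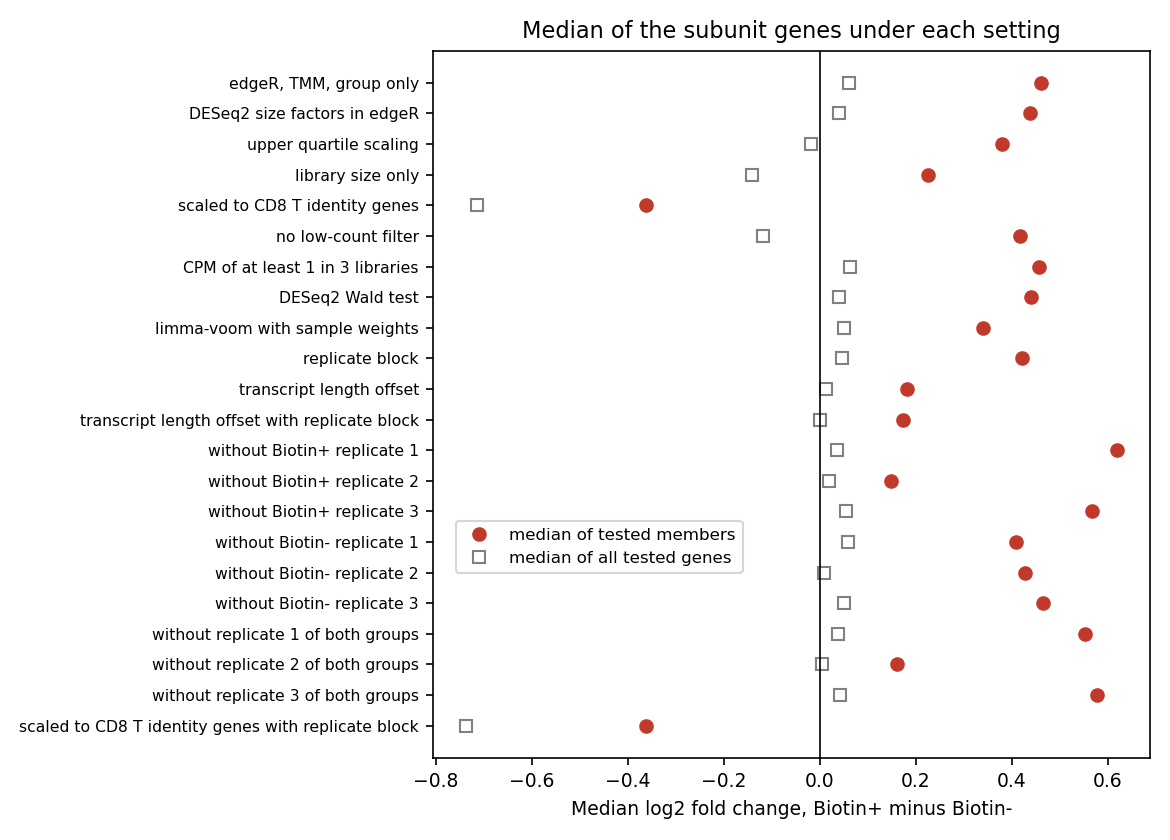
Median log2 fold change (Biotin+ minus Biotin-) of the tested subunits (circles) and of all tested genes (open squares) under each scaling, filter, test and left-out library. The subunit median is 0.46 in the fit reported and -0.36 with scaling to the CD8 T identity genes, and the median of all genes moves with it.

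Subunit transcripts are short, and under TMM scaling short transcripts outside the chain also had higher log2 fold changes than long ones. Of the 80 subunits, 51 have transcripts of at most 1000 bases. The median log2 fold change of all other genes was 0.27 for transcripts up to 600 bases, 0.35 from 600 to 800 bases, and -0.03 above 3000 bases. The subunits in the first 2 classes had medians of 0.50 (23 genes) and 0.52 (18 genes), and the 6 subunits between 2000 and 3000 bases had 0.13, where other genes had 0.07. With a per-library trend on transcript length in the fit, the subunit median was 0.18 and that of all genes 0.01. In that fit 0 subunits passed, where 9.58% of all genes passed, 1.88% higher and 7.7% lower. With the block added, 3 of the 80 passed as higher (Atp5d, Atp5l and Ndufb7) and 0 as lower, where 19.8% of all genes passed, 6.27% higher and 13.5% lower. Without Biotin+ replicate 2 and with no length trend, the medians were 0.19 for subunits and 0.07 for other genes up to 600 bases, and 0.17 and 0.09 from 600 to 800 bases. From 2000 to 3000 bases they were 0.014 and 0.0074, and other genes above 3000 bases had 0.016.

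**Figure D4:**
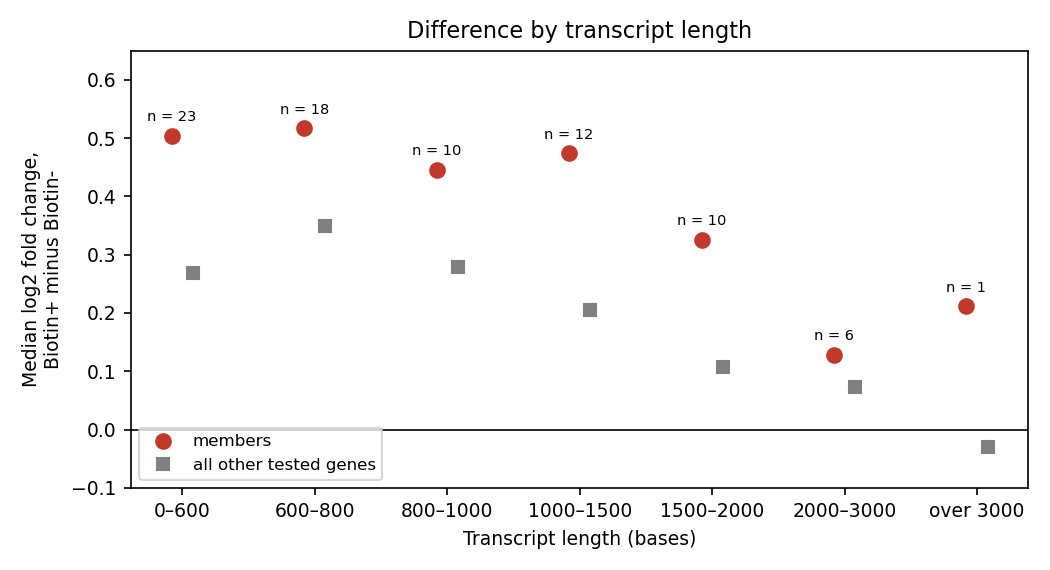
Median log2 fold change (Biotin+ minus Biotin-) by transcript length in bases, for subunits (circles, with their number) and all other tested genes (squares). Subunits stand at 0.50 and other genes at 0.27 up to 600 bases, and both approach 0 with length up to 3000 bases.

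By complex, the median log2 fold change was 0.42 for complex I, 0.23 for complex II, 0.39 for complex III, 0.54 for complex IV and 0.56 for complex V. Leaving out Biotin+ replicate 2, these medians were 0.11, 0.08, 0.12, 0.19 and 0.23 in the same order. They carry no test of their difference. Summed over its genes, complex I reached 3129 ± 949 CPM in Biotin+, against 2337 ± 103 CPM in Biotin- (SD, n = 3 each), and complex V 5818 ± 1740 CPM in Biotin+, against 4352 ± 335 CPM in Biotin-. Biotin+ replicate 2 held 4221 CPM of complex I and 7815 CPM of complex V, against 2506 and 2660 CPM, and 4630 and 5009 CPM, in Biotin+ replicates 1 and 3. The makeup of the chain was similar in both groups: complex V took 41.3 ± 0.2% of all subunit CPM in Biotin+, against 41.8 ± 1.3% in Biotin- (SD, n = 3 each), and complex I took 22.2 ± 0.1% in Biotin+, against 22.5 ± 0.9% in Biotin-. Complex IV took 21.4% to 22.6% in Biotin+ libraries and 20.3% to 20.9% in Biotin- libraries, without overlap.

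**Figure D5:**
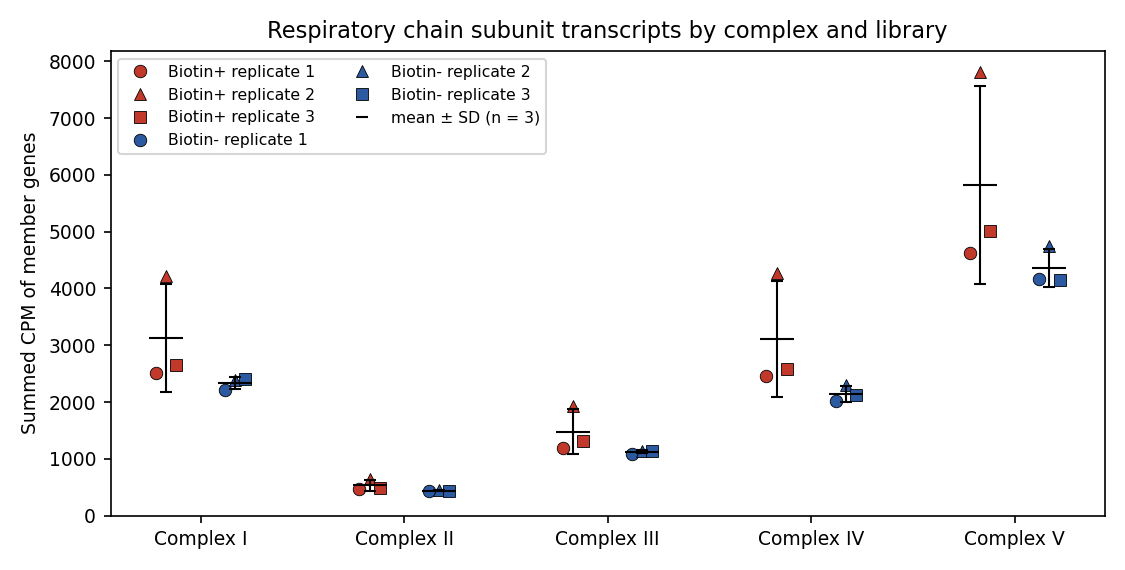
Summed CPM of the subunit genes of each complex in each library (Biotin+ left, Biotin- right; bars are mean ± SD, n = 3). Biotin+ replicate 2 is the highest library in all 5 complexes.

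Complex I accepts electrons from NADH. Ndufb7, an accessory subunit of its membrane arm, had 113, 168 and 124 CPM in Biotin+ replicates 1 to 3 and 71.2, 74.3 and 87.9 CPM in Biotin- replicates 1 to 3. Every Biotin+ library thus lay above every Biotin- library. Its log2 fold change was 0.79 ± 0.21 (SE, edgeR adjusted p = 0.0442; 0.0108 with the block). The call was lost without Biotin+ replicate 2 (edgeR adjusted p = 0.112) or 3 (0.0622), and without Biotin- replicate 1 (0.184), 2 (0.147) or 3 (0.108). It was also lost with DESeq2 size factors (0.0513), upper quartile scaling (0.0675), library size alone (0.115) and the length trend (0.0755), and under the identity scaling the value was -0.03. Ndufb1, another small membrane-arm subunit, had 55.7, 78.7 and 54.7 CPM in Biotin+, against 30.7, 39.4 and 42.4 CPM in Biotin-. Its groups did not overlap either (log2 fold change 0.75 ± 0.23 SE, edgeR adjusted p = 0.0704; 0.0197 with the block). Ndufa8 had 67.4, 104 and 70.5 CPM in Biotin+, against 54.7, 54.7 and 52.7 CPM in Biotin-, also without overlap, and did not pass (0.58 ± 0.21 SE, edgeR adjusted p = 0.136).

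The 7 nuclear core subunits of complex I, which hold the flavin and iron-sulphur clusters, had a median log2 fold change of 0.25, from 0.11 for Ndufs1 to 0.43 for Ndufv2. The 30 other genes with Nduf symbols, taken as accessory subunits, had a median of 0.45, from 0.03 for Ndufb4 to 0.79 for Ndufb7. The core transcripts are also longer, with a median of 1623 bases against 747.5. With the length trend in the fit the medians were 0.10 for core and 0.16 for accessory subunits. These groups were drawn up after the values were seen. Without Biotin+ replicate 2 the medians were 0.05 for core and 0.14 for accessory subunits. Per length, levels in complex I reached 217 CPM per kb in Biotin+ and 125 in Biotin- for Ndufb7, the highest in Biotin+, and 209 in Biotin+ and 149 in Biotin- for Ndufb11, an accessory subunit and the highest in Biotin-. The lowest were Ndufb4 in Biotin+ (14.6, against 14.4 in Biotin-) and Ndufb2 in Biotin- (13.4, against 16.99 in Biotin+). Counts of Ndufb4, and thus its log2 fold change, are uncertain, as 35.2% of its 75-base windows occur in other genes' transcripts. The rank of Ndufb2 rests partly on the length used for it, 2413 bases.

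Complex II, succinate dehydrogenase, links the tricarboxylic acid cycle to the chain and has no mitochondrially encoded part. None of its 4 genes passed. Sdhb, the iron-sulphur subunit, had 138, 256 and 163 CPM in Biotin+, against 138, 119 and 147 CPM in Biotin-, so that the groups overlapped (log2 fold change 0.47 ± 0.25 SE, edgeR adjusted p = 0.298). Sdha, the flavoprotein, had 152, 169 and 139 CPM in Biotin+, against 139, 163 and 118 CPM in Biotin-. Its groups overlapped, while Biotin+ was above Biotin- in each of the 3 same-numbered pairs (0.13 ± 0.20 SE, edgeR adjusted p = 0.752). The membrane anchor Sdhd had 96.1, 112 and 107 CPM in Biotin+, against 84.3, 96.8 and 83.7 CPM in Biotin- (0.25 ± 0.18 SE). Its partner Sdhc had 79.1, 109 and 83.4 CPM in Biotin+, against 75.2, 70.2 and 88.98 CPM in Biotin- (0.21 ± 0.20 SE). Both anchors had overlapping groups.

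Complex III passes electrons from ubiquinol to cytochrome c. Its 9 genes had log2 fold changes from 0.29 (Cyc1, cytochrome c1) to 0.56 (Uqcr10, a small subunit), and none passed. Uqcrfs1, the Rieske iron-sulphur protein, had 180, 219 and 193 CPM in Biotin+, against 134, 180 and 138 CPM in Biotin-. Its ranges met without overlapping (0.39 ± 0.20 SE, edgeR adjusted p = 0.278), and those of the other 8 genes overlapped. Uqcr10 had 91.5, 183 and 103 CPM in Biotin+, against 74.9, 92.8 and 88.5 CPM in Biotin-. Uqcrh, the hinge protein, had the highest level per length, 422 CPM per kb in Biotin+ and 299.9 in Biotin-. Its libraries held 185, 330 and 177 CPM in Biotin+, against 142, 194 and 156 CPM in Biotin- (0.49 ± 0.27 SE, edgeR adjusted p = 0.31). Uqcrb, a small subunit on the matrix side, had 58.9, 78.3 and 49.3 CPM in Biotin+, against 44.7, 45.6 and 49.5 CPM in Biotin- (0.42 ± 0.22 SE). It shared 29.1% of its 75-base windows with other genes' transcripts.

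Complex IV, cytochrome c oxidase, reduces oxygen. Its 10 subunits of the usual isoforms had log2 fold changes between 0.48 and 0.69, and their median was 0.58, or 0.22 without Biotin+ replicate 2. Cox8a, a small membrane subunit, had 314, 507 and 340 CPM in Biotin+, against 238, 272 and 215 CPM in Biotin-, without overlap (0.68 ± 0.23 SE, edgeR adjusted p = 0.106; 0.0157 with the block). Cox5a, which faces the matrix, had 140, 227 and 158 CPM in Biotin+, against 102, 134 and 90.003 CPM in Biotin-, again without overlap (0.69 ± 0.24 SE, edgeR adjusted p = 0.113; 0.0155 with the block). Cox7c had 126, 275 and 158 CPM in Biotin+, against 89.5, 148 and 129 CPM in Biotin-, with overlapping groups, and passed with the block alone (edgeR adjusted p = 0.265; 0.0496 with the block). Cox6b1, on the intermembrane side, had 134, 214 and 140 CPM in Biotin+, against 113, 119 and 103 CPM in Biotin-, without overlap (0.54 ± 0.22 SE, edgeR adjusted p = 0.177). Reads of Cox5a and Cox7c are uncertain, as they shared 21.7% and 20.8% of 75-base windows with other genes' transcripts.

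Several complex IV subunits exist as tissue isoforms, and nearly all counts lay in the common ones. Cox4i1 had the highest level per length of complex IV, 1052 CPM per kb in Biotin+ and 748 in Biotin-. Its libraries held 605, 1096 and 683 CPM in Biotin+, against 557, 505 and 633 CPM in Biotin-, with overlap (0.49 ± 0.26 SE, edgeR adjusted p = 0.293). Its counterpart Cox4i2, known from lung and as a hypoxia-sensitive isoform, had 0, 1 and 0 counts in Biotin+ and 8, 1 and 8 counts in Biotin-. Cox6a1 had 260 CPM, 439 CPM and 294 CPM in Biotin+, against 224, 236 and 238 CPM in Biotin-, without overlap (0.51 ± 0.23 SE, edgeR adjusted p = 0.217). The striated muscle isoform Cox6a2 had 6.69, 1.94 and 0.242 CPM in Biotin+, against 5.98, 3.51 and 3.41 CPM in Biotin-, so that it was highest in replicate 1 of both groups. Of 6 striated muscle markers, 1 had enough counts to be tested, and all 6 together took 0.000116% to 0.000163% of counts in Biotin+ and 0.000101% to 0.000225% in Biotin-. Their part in the Cox6a2 values was not tested. Cox7a1, a muscle isoform, had 3, 0 and 10 counts in Biotin+ and 2, 1 and 6 in Biotin-. Cox6b2, a testis isoform, had 12, 14 and 2 counts in Biotin+ and 4, 16 and 32 in Biotin-, and Cox8b, Cox8c and Cox7b2 had none in any library. Cox7a2l, a supercomplex assembly factor related to Cox7a2, had 365, 541 and 290 CPM in Biotin+, against 283, 372 and 278 CPM in Biotin- (0.36 ± 0.26 SE). Cox7a2 itself had 88.2, 198 and 83.9 CPM in Biotin+, against 73.3, 92.4 and 76.7 CPM in Biotin- (0.61 ± 0.31 SE). Both had overlapping groups.

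With the block 5 of 17 complex V subunits were higher, where 5.6% of all genes were, against 3 of 13 tested in complex IV and 2 of 37 in complex I. Atp5d, the delta subunit at the foot of the central stalk, had 412, 628 and 486 CPM in Biotin+, against 311, 287 and 298 CPM in Biotin-. Each Biotin+ library lay above each Biotin- library, and the fit fell just short of the threshold (0.77 ± 0.21 SE, edgeR adjusted p = 0.053; 0.00918 with the block). Among the fits that left out 1 library or 1 same-numbered pair, it passed only without Biotin+ replicate 1 (edgeR adjusted p = 0.0454). The same held for Atp5l (0.0494). Atp5e, the epsilon subunit beside it, had 235, 425 and 235 CPM in Biotin+, against 181, 195 and 185 CPM in Biotin- (0.67 ± 0.25 SE, edgeR adjusted p = 0.141; 0.0379 with the block). Atp5c1, the gamma subunit that forms the rotating shaft, had 284, 500 and 318 CPM in Biotin+, against 225, 263 and 229 CPM in Biotin- (0.62 ± 0.24 SE, edgeR adjusted p = 0.155; 0.0344 with the block). None of these 3 central stalk subunits had overlapping groups.

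The large alpha and beta subunits that form the catalytic ring had smaller log2 fold changes. Atp5b, the beta subunit, had the highest level per length of the complex, 758 CPM per kb in Biotin+ and 620 in Biotin-. It had 1138, 1970 and 1249 CPM in Biotin+, against 1150, 1314 and 1100 CPM in Biotin-, so that the groups overlapped (0.29 ± 0.25 SE, edgeR adjusted p = 0.547). Atp5a1, the alpha subunit, had 846, 1331 and 902 CPM in Biotin+, against 918, 1044 and 881 CPM in Biotin- (0.12 ± 0.24 SE, edgeR adjusted p = 0.823). Both were lower under the identity scaling (log2 fold changes -0.53 and -0.69, edgeR adjusted p = 0.0408 and 0.0164).

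In the peripheral stalk, which holds the head still, Atp5j had 102, 130 and 109 CPM in Biotin+, against 70.3, 86.0 and 75.8 CPM in Biotin-, without overlap (0.56 ± 0.19 SE, edgeR adjusted p = 0.104; 0.0457 with the block). The 4 stalk genes had a median of 0.53, and of 0.19 without Biotin+ replicate 2. The 5 small membrane subunits had a median of 0.67, and of 0.24 without that library, and Atp5l, subunit g, led them with 106, 217 and 127 CPM in Biotin+, against 75.4, 101 and 80.4 CPM in Biotin- (0.81 ± 0.27 SE, edgeR adjusted p = 0.100; 0.0112 with the block). Since Atp5l shared 76% of its windows with other genes' transcripts, its counts are uncertain.

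Subunit c, which forms the rotor ring, is encoded by 3 genes whose mature proteins are the same. Atp5g1 had 78.7, 125 and 92.0 CPM in Biotin+, against 91.3, 80.2 and 99.1 CPM in Biotin-, with overlapping groups (0.13 ± 0.22 SE). Atp5g2 had 205, 358 and 239 CPM in Biotin+, against 182, 187 and 195 CPM in Biotin-, without overlap (0.51 ± 0.23 SE, edgeR adjusted p = 0.222). Atp5g3 had 237, 354 and 278 CPM in Biotin+, against 199, 219 and 200 CPM in Biotin-, also without overlap (0.49 ± 0.21 SE, edgeR adjusted p = 0.186). Per length, Atp5g1 was the lowest in both groups, at 36.8 CPM per kb in Biotin+ and 33.7 in Biotin-. Atp5g2 had 457 and 321, and Atp5g3 had 403 and 287. The lengths used were 2675.5 bases for Atp5g1, 586 for Atp5g2 and 718.5 for Atp5g3, so the gap rests partly on them. Mean CPM were 98.5, 268 and 290 in Biotin+ and 90.2, 188 and 206 in Biotin-, in the same order. Atp5g2 shared 35.8% of its 75-base windows with other genes' transcripts, so its counts are uncertain.

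Of 13 mitochondrially encoded genes, 10 were tested and 0 passed in edgeR (0 also at an unadjusted p under 0.05, and 0 with the block), and their median was 0.12, beside 0.46 for the nuclear subunits. Without Biotin+ replicate 2 these medians were -0.01 and 0.15. Of the 10, the identity scaling put 6 lower, where 29.2% of all genes were lower. COX1, the catalytic subunit of complex IV, averaged 6338 ± 694 CPM in Biotin+, against 6832 ± 1846 CPM in Biotin- (n = 3 each, SD; log2 fold change -0.11 ± 0.26 SE). The log2 fold changes were 0.12 ± 0.21 (SE) for CYTB of complex III and 0.26 ± 0.26 (SE) for ND1 of complex I. Whether the nuclear and mitochondrial sets differ was not tested. Counts were uneven along this genome: COX3 averaged 4.2 ± 2.2 CPM in Biotin+, against 3.53 ± 0.62 CPM in Biotin-, far under COX1.

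Assembly factors, carriers and regulators were read as lists. Of 20 complex IV assembly factors tested, 1 was higher, where 1.53% of all genes were. It was Cox17, the copper chaperone, with 74.5, 152 and 116 CPM in Biotin+, against 47.4, 60.3 and 57.3 CPM in Biotin-, without overlap (1.05 ± 0.26 SE, edgeR adjusted p = 0.0328, and 0.00199 with the block). Its call was kept without Biotin+ replicate 1 and lost without Biotin+ replicate 2 (edgeR adjusted p = 0.098) or 3 (0.0529), without Biotin- replicate 1 (0.131), 2 (0.0859) or 3 (0.119), and under the identity scaling (log2 fold change 0.24). Of 16 complex I, 4 complex II, 6 complex III and 5 ATP synthase assembly factors 0 passed in edgeR, with 2 of complex I higher, 1 of complex I lower and 1 of ATP synthase higher at an unadjusted p under 0.05, and 0 with the block. Their medians were 0.25, 0.22, -0.01 and 0.29 in that order, and that of complex IV was 0.42. Leaving out Biotin+ replicate 2 they were 0.07, 0.03, -0.20 and -0.02, and 0.21 for complex IV. Among 8 further subunits and carriers 0 passed. Of them 2 were higher both at an unadjusted p under 0.05 (8.62% of all genes) and with the block (5.6% of all genes). One is Cycs, which encodes the electron carrier cytochrome c (0.64 ± 0.28 SE, edgeR adjusted p = 0.198; 0.0446 with the block).

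Of 17 tricarboxylic acid cycle genes, 1 was lower and 0 were higher, where 6.72% of all genes were lower and 1.53% higher. The median of the 17 was 0.18, or -0.02 without Biotin+ replicate 2. The lower gene was Idh2, a mitochondrial isocitrate dehydrogenase, at 20.98, 24.2 and 22.6 CPM in Biotin+, against 63.98, 45.7 and 79.4 CPM in Biotin- (-1.48 ± 0.24 SE, edgeR adjusted p = 0.00784). The fibroblast and endothelial markers given above, 6 of 10 tested being lower, moved the same way, and their part in this value was not tested. Of 13 regulators of mitochondrial biogenesis tested, 0 passed in edgeR and 0 reached an unadjusted p under 0.05, with a median of 0.06. Nrf1, the factor whose letters are named above, averaged 64.5 ± 6.4 CPM in Biotin+, against 50.3 ± 4.8 CPM in Biotin- (n = 3 each, SD; log2 fold change 0.36 ± 0.19 SE, edgeR adjusted p = 0.295). The subunit median of 0.46 stood beside 0.36 for 78 mitochondrial ribosomal protein genes and 0.35 for 82 cytosolic ones, of which 0 passed in edgeR in either set (15 and 2 were higher at an unadjusted p under 0.05, where 8.62% of all genes were). Without Biotin+ replicate 2, the library with 18.8% of its counts in cytosolic ribosomal protein genes, the medians were 0.15 for the subunits, 0.10 for the mitochondrial and 0.07 for the cytosolic ribosomal protein genes, and 0.02 for all genes.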

How the data were processed

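Polyadenylated RNA from the sorted CD8 T cells was sequenced in 3 Biotin+ and 3 Biotin- libraries. The authors deposited raw counts per gene in a single table, and 0 of its columns belong to other samples. The submitters' processing notes list STAR 2.7.10a, featureCounts 2.0.1, Trim Galore 0.6.7 and Picard 1.14, and GRCm39 as build. Strand setting, annotation and the handling of multi-mapping reads were not given in the sources used here, so reads of overlapping genes and near-identical copies are uncertain. Of 84 subunits with a coding transcript in GENCODE M21, 47 shared no 75-base window with another gene's transcript and 18 shared over 10%.

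Genes were tested with edgeR 4.0.16 (R 4.3.3; filterByExpr, TMM, robust quasi-likelihood F test, group alone, Benjamini-Hochberg over 13360 genes, threshold 0.05). Log2 fold changes run Biotin+ minus Biotin-. Each SE was taken as the log2 fold change over the square root of its F, and CPM use TMM-scaled library sizes. Transcript lengths are medians over principal transcripts of GENCODE M21 on GRCm38. That build differs from the submitters', and it served for lengths and windows only. Within groups, counts of any pair of libraries differed beyond sampling noise, with a chi-square of 35.6 to 102.7 per degree of freedom. The labels name no molecular identifiers, so reads may not be independent molecules. Same-numbered libraries had correlated deviations (0.424, 0.272 and 0.430), and the others had values of -0.304 to -0.107. Deviations within a group offset each other, so positive values for matching numbers make the others negative, which is no separate evidence. The labels do not say whether the numbers pair samples. The pairing was taken from the same counts that were tested.

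Alternatives used DESeq2 1.42.0, limma 3.58.1 and the settings of the closing section. The fit was tested on simulated data with 200 changed genes, less spread between libraries than here and no outlying library. That checks how the fit runs, and not how it behaves on these libraries. Subunits and lists were chosen with earlier results of these data known. Values are given per library for subunits past the threshold with or without the block, the 3 of smallest p and the highest per length in each complex, and the isoform families. Further subunits, and genes of other lists beyond the called ones, were named after their values were seen.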

Additional observations from a re-analysis of the deposited data

How the results depend on the processing

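Without 1 library, or 1 same-numbered pair, the number of subunits called higher was 0 to 3 and called lower 0. Across all genes these settings called 23 to 200 higher and 239 to 1044 lower. The subunit median lay between 0.15 and 0.62, with 0.11 to 0.57 for complex I, 0.062 to 0.31 for complex II, 0.12 to 0.51 for complex III (at most 0.47 without a single library), 0.19 to 0.66 for complex IV and 0.23 to 0.72 for complex V. Of all genes 58 were higher and 364 lower without Biotin+ replicate 2, 52 and 445 without Biotin- replicate 1, 111 higher without Biotin- replicate 2, and 23 and 239 without Biotin- replicate 3. Without Biotin+ replicate 2 the medians were 0.15 for all subunits, 0.11, 0.079, 0.12, 0.19 and 0.23 for complexes I to V. Without pair 1, 2 or 3 these were 67, 46 and 39 genes higher and 385, 445 and 588 lower; without pair 2 the medians were 0.16 for all subunits and 0.11, 0.062 and 0.22 for complexes I, II and IV.

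DESeq2 size factors, upper quartile scaling, library size and the length trend each gave 0 subunits higher. Library size alone gave 84 genes higher and a complex II median of 0.013. No filter gave 4 subunits, with 396 genes higher and 1495 lower; DESeq2 gave 3, with 396 and 1368; limma-voom gave 3, with 351 higher. The replicate block gave 10 subunits, with 748 genes higher and 1599 lower, and changed no other call of a subunit than those named. The length trend gave a complex IV median of 0.22. With the replicate block it gave 3 subunits, 805 genes higher, 1735 lower and a complex IV median of 0.21.

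Scaled to CD8 T identity genes, 0 subunits were higher and 4 lower, with 21 genes higher and 3904 lower. The medians reversed to -0.36 for all subunits and -0.39, -0.57, -0.41, -0.28 and -0.23 for complexes I to V. Of the 80 tested subunits 0 had a positive value. The 4 called lower stood at -0.69 for Atp5a1, -0.53 for Atp5b, -0.66 for Ndufs1 and -0.65 for Sdha. Ndufb7, called under TMM scaling, stood near 0 at -0.028 (edgeR adjusted p = 0.921). This scaling with the replicate block was chosen after seeing the data. It gave 0 subunits higher and 17 lower, 92 genes higher and 8005 lower, and medians of -0.36, -0.40, -0.56, -0.39, -0.29 and -0.23 in the same order. In that fit too 0 of 80 subunits had a positive value. Some of the values were -0.70 for Atp5a1, -0.53 for Atp5b, -0.68 for Atp5g1, -0.46 for Cox7a2l, -0.66 for Ndufs1 and -0.65 for Sdha. Further ones were -0.58 for Sdhc, -0.53 for Sdhd and, near 0, -0.0062 for Ndufb7. The causes were not tested. Low counts limit Cox4i2, Cox7a1 and Cox6b2.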
